A study of Mus musculus with 8 samples.

Results

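Matrix proteases and their inhibitors were followed through single-cell RNA sequencing of mouse colon assembloids, organoids and tissue. The genes were all those in the deposited gene tables named Mmp, Timp 1 to 4 or Adamts with a number, which gave 45 of 32285 genes: 22 matrix metalloproteinases (Mmp), 4 tissue inhibitors of metalloproteinases (Timp) and 19 Adamts proteases. The study made 8 libraries, 2 from each of 4 sources, all from wild-type C57BL/6 mice that were male. Assembloid stroma and assembloid epithelium came from colon organoids embedded in Matrigel droplets together with primary colon stromal cells that had been expanded in culture with serum, then kept on an orbital shaker without the Wnt surrogate, CHIR-99021, R-spondin 1 and noggin. Organoid epithelium had grown in Matrigel without stroma, in full medium that holds these 4 factors, and tissue epithelium was colon crypts freed with EDTA and DTT. Both culture media held EGF and A83-01. Medium and stroma went with source and cannot be told apart from it. Stromal cells were sorted as EpCAM-negative, and the epithelial libraries were sorted by flow cytometry too. Assembloids were opened with Liberase TL and DNase before TrypLE, organoids with TrypLE alone and crypts with EDTA and DTT before TrypLE, so that dissociation and source cannot be told apart in any comparison between them.

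Mmp proteins are zinc endopeptidases that are made as inactive precursors and cut collagens, gelatins, laminins, proteoglycans and many signalling proteins. Timp proteins bind the active site of these enzymes and block it, while Timp3 is held in the matrix and also inhibits Adamts proteases and sheddases. Adamts proteases carry thrombospondin repeats and cut lecticans such as versican and aggrecan, trim procollagens or, in the case of Adamts13, cleave von Willebrand factor. In the gut, fibroblasts and macrophages are known as the main makers of several secreted Mmp, and epithelium makes matrilysin (Mmp7) during repair and in tumours.

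The libraries held 99133978 to 191255856 UMIs of a 3′ assay, and levels were not scaled by gene length. Intron counting is not given, and an effect of length on levels between genes was not tested. After filters of at least 500 genes and at most 10% mitochondrial UMIs, 4310 to 29410 cells per library remained, with 5906 to 474859 UMIs of the 45 genes. The filters kept 38.7% and 25.4% of tissue barcodes, with 7681 of 17715 and 5906 of 20386 UMIs of the 45 genes. In the other libraries 55.1% to 96.1% of barcodes were kept. Libraries shared 6 to 76 cell barcodes, at most 1.07% of a library. Cells were sorted into classes by fixed marker genes (gates), and a level is given as CPM, the UMI count of a gene scaled to all UMIs summed over the gated cells of a library, with library 1 before library 2. The stromal libraries gave 6743 and 8155 fibroblast-gated cells, 20 and 65 endothelial, 55 and 62 glial and 72 and 108 neuronal cells, and epithelial-gated cells numbered 24355 and 6699 from assembloids, 4843 and 7255 from organoids and 4581 and 4266 from tissue. Stroma library 1 stood apart through 734 basal squamous-gated cells, against 38 in library 2. Organoids held at most 9 colonocyte-gated and 7 goblet-gated cells, too few for a comparison. With 2 libraries a group, a difference was tested in edgeR's quasi-likelihood fit over all genes, since an exact permutation of 2 against 2 cannot give a p below 0.33. A gene is called at a Benjamini-Hochberg adjusted p under 0.05. In any class, fewer cells that hold a transcript and less transcript per cell cannot be told apart from summed UMIs.

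The genes were spread over 17 chromosomes, but 9 of the 22 Mmp genes stood side by side within 427 kb of chromosome 9 (GRCm38, 7272514 to 7699585), in the order Mmp13, Mmp12, Mmp1b, Mmp3, Mmp10, Mmp8, Mmp27, Mmp20 and Mmp7. Genes of this cluster were among those of highest level in fibroblasts (Mmp3, Mmp10), macrophages (Mmp12, Mmp13), and organoid cells and assembloid goblet cells (Mmp7). Their promoters are shown because they hold the sequence TGAGTCA or its reverse complement TGACTCA, the site of the AP-1 factors Fos and Jun: in windows from RefSeq (GRCm38.p6, 250 bases before to 50 after a start site), 31 of the 45 genes had a promoter, and the site was in 6 of 9 cluster genes and 0 of 22 others, where 5.20% of all 32851 promoters hold it. The start of the site lay at -46 in Mmp3, -63 in Mmp10, -35 in Mmp13, -44 in Mmp12, -63 in Mmp7 and -93 in Mmp1b, counted from the RefSeq start site. TATAAA, on the given strand, was in 7 of 9 cluster genes and in 2 of 22 others, against 8.32% of all promoters. Counted over all genes in place of promoters, the shares were 5.95% for the AP-1 site and 9.77% for TATAAA. A match is a description of letters, and the binding of a factor was not measured. The 120 bases before the start site are given for 5 genes, with the AP-1 sequence in capitals, at chr9:7445702-7445821 (Mmp3), chr9:7502222-7502341 (Mmp10), chr9:7272394-7272513 (Mmp13), chr9:7347254-7347373 (Mmp12) and chr9:7691970-7692089 (Mmp7), all on the plus strand.
Mmp3: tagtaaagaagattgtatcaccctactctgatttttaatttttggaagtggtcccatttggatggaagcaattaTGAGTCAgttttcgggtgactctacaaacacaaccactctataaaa
Mmp10: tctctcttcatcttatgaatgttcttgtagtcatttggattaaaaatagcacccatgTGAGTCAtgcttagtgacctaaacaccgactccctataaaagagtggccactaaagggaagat
Mmp13: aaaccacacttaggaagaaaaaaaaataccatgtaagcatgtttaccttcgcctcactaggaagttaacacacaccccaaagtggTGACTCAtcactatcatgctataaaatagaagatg
Mmp12: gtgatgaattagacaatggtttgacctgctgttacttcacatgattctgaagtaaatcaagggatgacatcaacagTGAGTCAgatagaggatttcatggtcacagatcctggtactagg
Mmp7: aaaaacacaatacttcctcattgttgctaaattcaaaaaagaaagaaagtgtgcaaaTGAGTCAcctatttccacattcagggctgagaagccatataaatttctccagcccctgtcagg

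**Figure D1:**
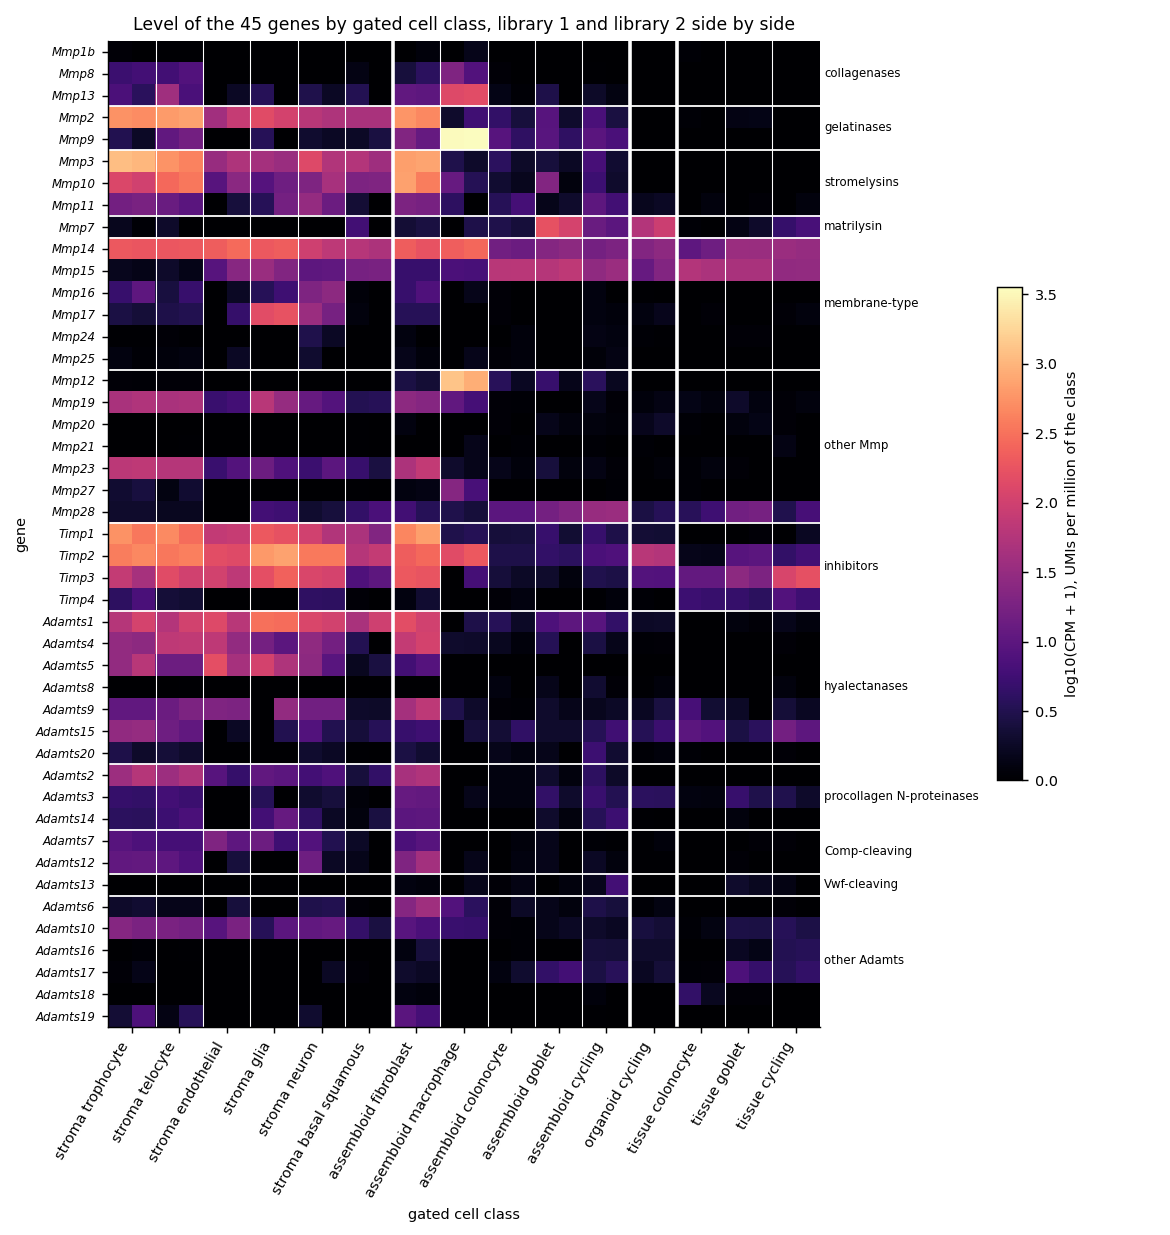
Level of each of the 45 genes (rows, ordered by role) in each gated class (columns, library 1 and library 2 side by side), as log10 of CPM + 1. Mmp2, Mmp3 and Timp1 are highest in fibroblast classes, Mmp9, Mmp12 and Mmp13 in macrophages, and Mmp7, Mmp15, Mmp28, Timp2 or Timp3 is the highest gene of each epithelial class in each library.

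Stromal fibroblasts had UMIs of nearly all of these genes, and a few genes made up most of the level. The summed level of the 45 genes was 3406 CPM in library 1 and 3315 in library 2, with 41 and 43 of the 45 genes seen, and the leading 3 genes made up 62.8% and 58.7% of it. Of the stromelysins, Mmp3, which cuts proteoglycans and activates other Mmp, stood at 1016 and 956 CPM, and Mmp10 at 202 and 254. Mmp2, gelatinase A, stood at 559 and 549 CPM. Mmp14, the membrane-bound enzyme that activates the precursor of Mmp2, stood at 200.04 and 191 CPM. The inhibitors together reached 1031 and 884 CPM: Timp1 563 and 373, Timp2 368 and 441, Timp3 98.2 and 65.6. Summed Mmp transcripts were 2.07 and 2.38 times the summed Timp transcripts, a ratio of RNA levels that says nothing of active enzyme. The Adamts genes were lower, with Adamts1 the highest. Of those that cut versican and aggrecan, Adamts1 was at 55.7 and 100.1 CPM, Adamts4 at 42.5 and 39.3, and Adamts5 at 22 and 44.2. The procollagen N-proteinases, which remove the amino-terminal propeptide of fibrillar collagens, summed to 42.7 and 61.8 CPM, nearly all of it Adamts2 (35.1 and 54.3). The collagenases summed to 20.9 and 11.6 CPM, and Mmp20 and Adamts18 were at 0 UMIs in both libraries.

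Transcripts of the leading genes were spread over many of the fibroblasts. After each cell was thinned to 2000 UMIs, Mmp2 had a UMI in 63.0% and 61.3% of fibroblasts (97.9% and 97.8% unthinned), Timp2 in 50.4% and 56.8% (96.4% and 98.1%), Timp1 in 54.7% and 41.2% (95.4% and 87.8%) and Mmp3 in 45.7% and 42.9% (78.3% and 76.1%). As a measure of background, of basal squamous-gated cells in the same libraries thinned alike, 9.58% and 2.63% had a UMI of Mmp2 (58.2% and 71.1% unthinned) and 9.71% and 7.89% of Mmp3 (62.8% and 65.8%). Median depths were 14779 and 13030 UMIs in fibroblasts and 22090 and 29698.5 in basal squamous-gated cells.

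Between subsets of the fibroblasts, the composition of the proteases differed. Trophocytes are known as fibroblasts below the crypt base that supply R-spondins and BMP antagonists, and telocytes as fibroblasts close to the epithelium that express Wnt and BMP ligands, and the classes were gated on such markers (1208 and 2569 trophocyte-gated cells, 867 and 987 telocyte-gated cells). The low-count filter left 34 of the 45 genes for the test, of which 13 were higher in trophocytes and 8 in telocytes, where 9.81% of the 14209 genes tested were higher and 10.5% lower, and the median log2 fold change was 0.23 against 0.013 over all genes. The libraries entered as a term, because both classes came from the same libraries. Mmp3 stood at 1169 and 1028 CPM in trophocytes and at 566 and 420.3 in telocytes, with no overlap (log2 fold change 1.26 ± 0.12 SE, adjusted p = 0.00223). Its neighbour on chromosome 9, Mmp10, went the other way, at 126 and 99.2 CPM in trophocytes and 271 and 355 in telocytes (-1.36 ± 0.19, adjusted p = 0.00752). Both stromelysins are close in sequence and substrate, yet in each library trophocytes had the more Mmp3 and telocytes the more Mmp10. Most fibroblasts, 4668 and 4599 cells, were in neither class. Mmp3 made up 31.0% and 30.6% of their summed level of the 45 genes. In trophocytes it made up 34.1% and 32.4%, and in telocytes 18.4% and 14.2%. Of 78412472 and 70307218 UMIs, the remaining fibroblasts held 16110 and 21179 of Mmp10. They were not tested, so neither difference is shown to be particular to a class. Gelatinase B, Mmp9, was low in trophocytes, at 2.20 and 0.796 CPM, and reached 10.2 and 14.7 in telocytes (-3.12 ± 0.39, adjusted p = 0.00527). Mmp2 was at 539.8 and 490.3 CPM in trophocytes against 652 and 738 in telocytes (-0.34 ± 0.077, adjusted p = 0.031). Mmp14 was not called, at 196 and 187 against 192 and 195 CPM (0.08 ± 0.058, adjusted p = 0.35). Mmp13, a collagenase, was at 6.08 and 2.74 CPM against 38.3 and 5.90, so that its groups overlapped although each library was lower in trophocytes (-2.01 ± 0.41, adjusted p = 0.0219). Of the other called Mmp, the membrane-type enzyme Mmp16 was at 3.87 and 9.49 against 1.53 and 3.8 CPM (1.44) and Mmp11, also called stromelysin 3, at 15.1 and 17.2 against 12 and 8.43 (0.77).

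The aggrecanases split in the same comparison. Adamts4 was at 29.1 and 25.2 CPM in trophocytes and at 70.9 and 72.0 in telocytes (-1.30 ± 0.067, adjusted p = 0.000386), the smallest p of the 34 genes. Adamts5 was at 29.4 and 62.4 CPM in trophocytes and at 13.0 and 12.9 in telocytes (1.86 ± 0.26, adjusted p = 0.00749). Adamts15, a further versican-cutting enzyme, was at 27.6 and 31.3 against 13.2 and 10.02 CPM (1.46 ± 0.15, adjusted p = 0.00303). Of these enzymes, Adamts4 was thus the higher in telocytes and Adamts5 and Adamts15 in trophocytes. Adamts9, which is grouped with them, was also called higher in telocytes. Adamts1 was at 57.2 and 109 against 55.2 and 103 CPM and was not called (0.17, adjusted p = 0.127). Among smaller calls, Adamts19 was at 1.29 and 6.43 against 0.352 and 2.48 CPM, Adamts6 at 0.914 and 1.12 against 0.469 and 0.474, and Adamts7, which cleaves the matrix protein Comp, at 8.01 and 6.40 against 5.34 and 5.27. Adamts14, a procollagen N-proteinase, went the other way, at 2.90 and 2.80 against 4.28 and 5.96. Of the inhibitors, Timp3 was at 76.4 and 43.0 CPM in trophocytes and at 144 and 98.7 in telocytes (-0.96 ± 0.088, adjusted p = 0.00204). Timp4 was at 2.96 and 5.95 against 1.35 and 1.16 CPM (1.94, adjusted p = 0.011). Timp1, at 552 and 349.8 against 483 and 291 CPM, and Timp2, at 381 and 459.6 against 346 and 402, were called with overlapping groups and small differences (0.32 and 0.26). The calls rested on comparing classes within a library: without the library term 2 genes were higher and 1 lower, Mmp3, Adamts15 and Adamts4. Over all genes tested, the share called went from 20.3% to 1.48% without that term. The other called genes were Mmp23 and Adamts10, higher in trophocytes, and Adamts9, higher in telocytes. Scaling by library size without TMM kept 7 of the 13 higher calls, and the share of higher calls among all genes went from 48.3% to 32.2%. Basal squamous markers summed to 68.2 CPM in trophocytes and 74.1 in telocytes of library 1, and to 5.69 and 7.01 in library 2, and their part in these results was not tested.

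**Figure D2:**
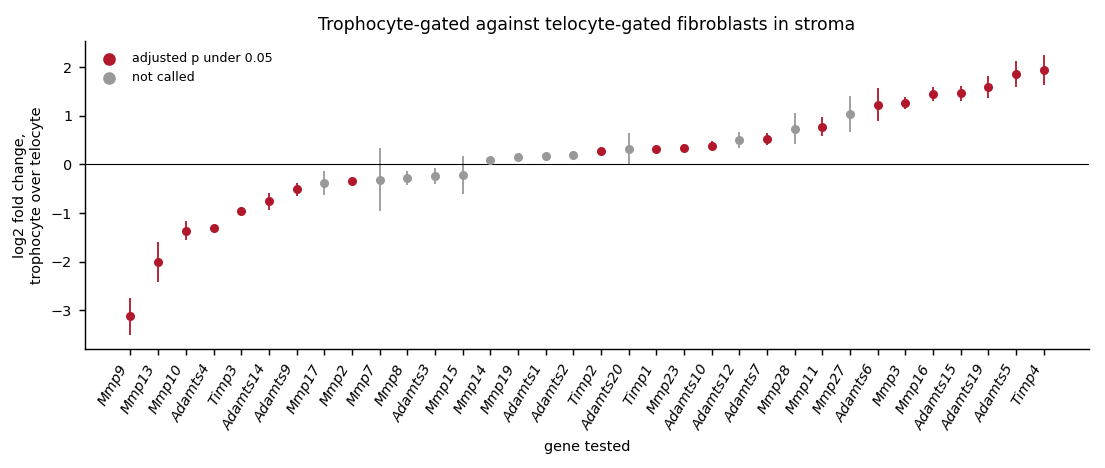
Log2 fold change between trophocyte-gated and telocyte-gated fibroblasts for the 34 genes tested, with bars for the SE. Red points have an adjusted p under 0.05, and Mmp3, Adamts5 and Adamts15 lie on the trophocyte side while Mmp10, Mmp9 and Adamts4 lie on the telocyte side.

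Glia differed from fibroblasts of the same libraries in both directions, with Mmp17 far higher and Mmp3 and Mmp10 lower. Mmp17, a glycosylphosphatidylinositol-anchored Mmp, was at 149 and 173 CPM in glia and at 1.53 and 1.51 in fibroblasts (log2 fold change 6.64 ± 0.36, adjusted p = 1.98e-08). With cells thinned to 2000 UMIs, 25.5% and 28.8% of glia had a UMI of Mmp17 (61.8% and 58.1% unthinned), against 0.298% and 0.209% of fibroblasts (2.49% and 2.19%), at median depths of 7153 and 7111.5 UMIs in glia. Glia also had more Adamts1 (313 and 289 against 55.7 and 100.1 CPM, 1.90 ± 0.34, adjusted p = 0.000943), Timp3 (159 and 238 against 98.2 and 65.6, 1.23 ± 0.24, adjusted p = 0.00146) and Timp2 (625 and 740.4 against 368 and 441, 0.67 ± 0.15, adjusted p = 0.00411). Their Mmp to Timp ratio was 0.675 and 0.546, below 1 where that of fibroblasts was above it. Mmp15, a membrane-type enzyme, was at 33.3 and 20.01 CPM in glia against 0.728 and 0.390 (5.49 ± 0.59, adjusted p = 9.69e-06). Mmp3 was at 41.0 and 33.4 CPM (-4.83), Mmp2 at 143 and 107 (-2.24), Mmp10 at 7.68 and 13.3 (-4.54) and Timp1 at 195 and 167 (-1.43), all lower than in fibroblasts. Mmp14 was not called, at 197 and 216 CPM, nor was the other stromelysin, Mmp11, at 2.56 and 15.6. The fit of the stromal classes tested 22 of the 45 genes, some of which passed the filter on low counts through fibroblasts alone, so that counts and medians against fibroblasts describe the genes and support nothing further, for glia and for the classes that follow. Of the 22, 5 were higher and 9 lower in glia, against 13.5% and 14.2% of all genes tested, and the median log2 fold change was -0.56 against -0.11 over all genes. The other lower calls were Mmp23, Adamts2, Adamts4 and Adamts10, with log2 fold changes from -2.88 to -1.73, and Adamts15, with 1 UMI in glia (pooled ratio 0.0484, 95% counting interval 0.00123 to 0.270).

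In neurons Mmp17 and Mmp15 were higher than in fibroblasts as well, in a comparison with the same fibroblasts. Mmp17 was at 33.9 and 15.6 CPM (3.78 ± 0.38, adjusted p = 3.9e-06 against fibroblasts) and Mmp15 at 9.25 and 9.67 (3.94 ± 0.55, adjusted p = 6.78e-05). Mmp16, another membrane-type enzyme, was at 18.5 and 25.3 CPM against 2.74 and 6.91 (2.09 ± 0.39, adjusted p = 0.00075). The neuronal levels of Timp2 (357 and 361 CPM), Timp3 (120.3 and 109) and Adamts1 (120.3 and 102) were not called. In all, 3 of 22 were higher and 11 lower, against 20.2% and 20.3% of all genes, with a median of -1.09 against -0.043 (TMM scaling moved the median of all genes by -0.18 relative to library size, and without it the share of higher calls went from 49.9% to 60.8%). Among the lower, Mmp3 was at 133 and 53.6 CPM, Mmp2 at 61.7 and 50.6, Mmp10 at 18.5 and 44.6, Timp1 at 98.7 and 53.6 and Mmp14 at 97.7 and 68.4. The other lower calls, Mmp19, Mmp23, Adamts2, Adamts4, Adamts10 and Adamts15, had log2 fold changes from -3.45 to -0.97.

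In endothelial cells the secreted stromelysins and gelatinase A were lower than in fibroblasts. Mmp14 was at 213 and 280.3 CPM (0.29 ± 0.19, adjusted p = 0.298), Timp3 at 103 and 68.2 and Adamts1 at 134 and 60.9, none of them called. Mmp15 was at 7.90 and 22.7 CPM and higher (5.10 ± 0.52, adjusted p = 6.13e-06), the single higher call of 22 tested, against 13.7% of all genes. These levels of Mmp15 were 2 UMIs in 20 cells of library 1 and 31 UMIs in 65 cells of library 2. The lower calls numbered 11, against 16.7%, with a median over the 22 of -2.06 against -0.11. They held Mmp3 at 31.6 and 51.4 CPM, Mmp2 at 39.5 and 79.3, Mmp10 at 7.90 and 25.0, Timp1 at 75.1 and 83.7 and Timp2 at 154 and 136. Of the other lower calls, Mmp19, Mmp23 and Adamts2 had log2 fold changes from -3.61 to -3.35. The others had 0 UMIs in library 1 of endothelial cells and 1 or 2 in library 2, with a pooled ratio of 0.0252 for Adamts15 (95% counting interval 0.000638 to 0.140), 0.0907 for Mmp11 (0.0110 to 0.328) and 0.126 for Mmp16 (0.00319 to 0.705). In basal squamous-gated cells 20 of 22 were lower and 1 higher, against 28.6% and 23.3% of all genes, with a median of -3.45 against -0.098 (TMM moved the median of all genes by 0.200, and without it the share of higher calls went from 44.9% to 32.7%). Mmp15 was again the higher gene, at 15.7 and 16.8 CPM (5.01 ± 0.39, adjusted p = 3.02e-07), and Adamts1 the gene not called, at 46.2 and 95.8 CPM. Mmp14 was at 59.9 and 48.7 CPM (-1.63), Timp2 at 58.3 and 76.5 (-2.42), Mmp2 at 45.3 and 45.4 (-3.42), Timp1 at 47.9 and 20.2 (-3.52), Mmp3 at 55.8 and 36.1 (-4.24), Mmp10 at 17.9 and 19.3 (-3.31) and Timp3 at 6.5 and 9.24 (-3.40). Of the Adamts, Adamts5 was at 0.667 and 1.68 CPM (-5.45), Adamts12 at 0.50 and 0 (-4.47), Adamts4 at 2.28 and 0 (-4.35), Adamts2 at 1.5 and 3.36 (-4.28), Adamts15 at 1.44 and 2.52 (-3.82) and Adamts9 at 0.944 and 0.840 (-3.36). Mmp19 was at 2.28 and 2.52 CPM (-4.25), Mmp23 at 3.83 and 1.68 (-3.98) and Mmp11 at 1.22 and 0 (-3.48), while Mmp16 had 3 UMIs (pooled ratio 0.0319, 95% counting interval 0.00657 to 0.0934). Mmp17, Adamts7 and Adamts10 were called lower too (-3.26 to -2.27). Mmp15 was therefore called higher in each of the 4 stromal classes compared with fibroblasts, comparisons that share the fibroblasts as their control.

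The stromal libraries held 3 and 4 macrophage-gated cells, and the authors name the lack of immune cells as a limit of their model. The assembloid libraries sorted for epithelium held 564 and 456 fibroblast-gated and 125 and 156 macrophage-gated cells. Both classes could be set beside epithelial cells of the same library. The test held 33 of the 45 genes, of which 26 were higher in fibroblasts and 3 lower, against 28.4% and 29.2% of all genes, with a median log2 fold change of 5.0 against -0.095. Since genes such as Adamts5, Adamts19, Adamts7, Mmp16 and Mmp23 were near 0 in epithelial cells and passed the filter on low counts through fibroblasts, the count and median describe the genes and support nothing further. Mmp3 was at 678 and 763 CPM in fibroblasts and 8.53 and 1.35 in epithelial cells (7.59 ± 0.81, adjusted p = 0.000605). Mmp10 was at 705 and 385 against 8.15 and 1.19 CPM (7.27 ± 0.56, adjusted p = 0.000219), and Timp1 at 457 and 684 against 6.13 and 1.62 (7.33 ± 0.73, adjusted p = 0.00047). Mmp2 was at 580 and 467 against 9.18 and 1.57 CPM (6.88), Timp3 at 195 and 179.7 against 2.96 and 1.72 (6.26), Timp2 at 215 and 271 against 6.80 and 4.52 (5.32) and Adamts1 at 152 and 98.8 against 8.91 and 3.18 (4.42). In both libraries these genes were among the highest of the 45 in fibroblasts, as in the stromal libraries. Mmp14 differed less, at 214 and 170.3 against 17.2 and 18.4 CPM (3.35 ± 0.20, adjusted p = 0.000132). Of the other Mmp, Mmp23 was at 49.5 and 74.7 CPM in fibroblasts (7.14), Mmp19 at 25.4 and 22.3 (6.39) and Mmp16 at 3.8 and 6.53 (5.64). Of the Adamts that cut lecticans, Adamts4 was at 76.8 and 108 CPM (6.66), Adamts9 at 41.8 and 68.7 (6.14) and Adamts5 at 4.82 and 7.62 (6.84). The procollagen N-proteinase Adamts2 was at 44.9 and 52.2 CPM (5.40), the Comp-cleaving Adamts12 at 19.5 and 40.4 (6.08) and Adamts7 at 6.09 and 7.98 (5.35), and Adamts19 at 8.62 and 5.26 (6.65). All of these were called. The 3 genes lower in fibroblasts were Mmp15 (3.8 and 3.81 CPM, -3.62), Mmp7 (1.27 and 1.63, -3.13) and Mmp28 (4.82 and 2.54, -2.91).

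Macrophages held a summed level of 5229 and 5089 CPM, the highest of the gated classes, and most of it was gelatinase B. Mmp9 was at 3337 and 3552 CPM, which was 63.8% and 69.8% of the sum, against 13.1 and 4.98 CPM in epithelial cells (8.60 ± 0.51, adjusted p = 0.000123). Mmp12, macrophage elastase, was at 1297 and 873 CPM against 5.65 and 0.734 (8.74 ± 0.76, adjusted p = 0.000337). A UMI of Mmp9 was in 93.2% and 92.9% of macrophages thinned to 2000 UMIs (98.4% and 99.4% unthinned), and of Mmp12 in 61.0% and 42.3% (73.6% and 64.7%). Of epithelial cells thinned alike, 3.23% and 1.26% had a UMI of Mmp9, at median depths of 3398 and 13751 UMIs against 7835 and 12444.5 in macrophages. Mmp13, a collagenase, was at 134 and 149 CPM (7.49), Mmp27 at 22.2 and 5.71 (8.36) and the neutrophil collagenase Mmp8 at 19.1 and 7.14 (7.20). Mmp14 was at 226 and 260.3 CPM (3.63) and Timp2, its partner in activating Mmp2, at 142 and 196 (4.75), while summed Mmp transcripts were 35.2 and 23.9 times the Timp transcripts. Mmp19 (10.1 and 5.23 CPM) and Adamts10 (4.03 and 3.81) were higher as well. Of 33 tested, 9 were higher and 4 lower, against 22.9% and 26.4% of all genes (TMM moved the median of all genes by -0.14). No median is given, since 6 of the 33 had 0 UMIs in macrophages, where the floor of 3 UMIs can lie above the epithelial level. The lower genes were Mmp15 (6.05 and 5.71 CPM, -3.08), Mmp28 (2.02 and 1.43, -4.05), Mmp7 (0 and 1.90, -3.41) and Adamts14, at 0 UMIs in macrophages and at least 1.99-fold lower.

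Between epithelial cells of assembloids and tissue, Mmp7 and Mmp28 were higher in assembloids, Timp3 and Timp4 were lower, and Mmp14 and Mmp15 were not called. The test held 39 of the 45 genes, all but Mmp1b, Mmp8, Mmp21, Mmp27, Adamts5 and Adamts19, and 24 were higher and 3 lower, against 26.7% and 23.5% of the 19060 genes tested, and the median log2 fold change was 2.44 (2.41 with genes at 0 UMIs set to their bounds) against 0.026 over all genes. Since 7 of these 39 genes had 0 UMIs in tissue and could pass the filter on low counts only through assembloids, the counts describe the genes and support nothing further. Mmp7, matrilysin, was at 12.6 and 11.7 CPM in assembloids and 0.919 and 1.14 in tissue (3.97 ± 0.25, adjusted p = 2.48e-05). Mmp28, epilysin, was at 24.1 and 26.2 against 5.49 and 9.01 CPM (2.19 ± 0.27, adjusted p = 0.000438). Both are proteases known from epithelia, and for both the groups were well apart. Of the 6 membrane-type enzymes 2 were called higher, Mmp17 and Mmp25, both of low level, and the others were not called. Mmp15 was at 39.0 and 50.03 CPM against 40.3 and 41.4 (0.51 ± 0.22, adjusted p = 0.085), and Mmp14 at 17.2 and 18.4 against 24.7 and 25.2 (-0.09 ± 0.17, adjusted p = 0.671). The log2 fold changes follow TMM scaling, which lay 0.395 above scaling by library size, so that Mmp14 shows a difference near 0 beside lower CPM. Without TMM the share of higher calls among all genes went from 53.2% to 37%, and no called gene of the 45 turned its direction.

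Inhibitors of the epithelium went in opposite directions. Timp3 was at 2.96 and 1.72 CPM in assembloids and 58.9 and 56.8 in tissue (-4.20 ± 0.33, adjusted p = 5.56e-05), and Timp4 at 0.0949 and 0.270 against 6.35 and 4.72 (-4.58 ± 0.65, adjusted p = 0.000832). Timp3 made up 36.1% and 35.8% of the summed level in tissue, more than any other of the 45 genes there. Timp1 was at 6.13 and 1.62 against 0.0641 and 0.136 CPM (5.76 ± 0.84, adjusted p = 0.000984), and Timp2 at 6.80 and 4.52 against 3.63 and 4.10 (0.97 ± 0.29, adjusted p = 0.0236). Adamts15 was lower in assembloids, at 2.85 and 4.69 against 11.1 and 7.79 CPM (-0.95 ± 0.31, adjusted p = 0.0333). The calls of Timp2 and Adamts15 were lost when assembloid library 1 or either tissue library was left out, and that of Mmp25 when either tissue library was. The calls of Mmp17, Mmp20, Adamts3 and Adamts8 were lost when any library but assembloid library 2 was left out, organoid libraries of the joint fit included, and that of Adamts12 without tissue library 1. Genes with few or no UMIs in tissue make up the rest. At 0 UMIs in tissue were Mmp3 (8.53 and 1.35 CPM in assembloids, at least 155-fold higher), Mmp9 (13.1 and 4.98, at least 271-fold) and Mmp10 (8.15 and 1.19, at least 147-fold), where a bound sets tissue at 3 UMIs over both libraries. The same held for Mmp12 (5.65 and 0.734 CPM, at least 101-fold), Mmp13 (1.37 and 0.241, at least 25.2-fold), Adamts2 (2.07 and 0.512, at least 39.9-fold) and Mmp25 (0.136 and 0.155, at least 4.0-fold). Assembloid library 1 had the higher level in each of these except Mmp25, and with library 2 alone the bounds fell to 37.7-fold for Mmp3, 139-fold for Mmp9, 33.1-fold for Mmp10, 20.5-fold for Mmp12, 6.73-fold for Mmp13 and 14.3-fold for Adamts2. The bounds hold for epithelial-gated cells that passed the filters. Over all tissue barcodes, libraries 1 and 2 held 0 and 5 UMIs of Mmp3, 0 and 15 of Mmp9 and 0 and 29 of Mmp12. Mmp13 had 0 and 1 there, Adamts2 had 3 and 2, and Mmp10 and Mmp25 had 0 in both. Mmp2 was at 9.18 and 1.57 against 0.128 and 0.109 CPM (5.95 ± 0.97, adjusted p = 0.00158), Mmp11 at 6.87 and 3.65 against 0.0641 and 0.136 (6.17 ± 0.58, adjusted p = 0.000124) and Adamts1 at 8.91 and 3.18 against 0.171 and 0.434 (4.80 ± 0.68, adjusted p = 0.00083). With 1 to 3 UMIs in tissue, the pooled ratio was 94.6 for Adamts4 (95% counting interval 16.8 to 3749), 80.8 for Adamts14 (22.2 to 669), 50.9 for Adamts20 (17.3 to 247), 13.5 for Adamts8 (4.53 to 66.6) and 12.4 for Adamts12 (4.15 to 61.2). Of these, Adamts14 stood at 1.75 and 2.19 CPM in assembloids, Adamts20 at 2.30 and 1.14, Adamts4 at 1.69 and 0.328, Adamts8 at 0.779 and 0.0676 and Adamts12 at 0.610 and 0.212, against 0.0641 and 0 in tissue for Adamts8. The other genes called higher were Mmp17, Mmp20, Adamts3, Adamts6 and Adamts13.

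Markers of other cells moved with several of these genes. The 8 fibroblast markers summed to 107 and 22.7 CPM in assembloid epithelial cells, all 8 seen, and to 0.021 and 0.054 in tissue, with 1 and 2 of 8 seen. The 9 macrophage markers summed to 36.5 and 18.5 CPM in assembloid and 3.59 and 3.8 in tissue epithelial cells. In assembloids the fibroblast markers were thus at 0.857% and 0.179% of their level in fibroblast-gated cells of the same library. Several genes lay near that range: Mmp3 at 1.26% and 0.177% of its fibroblast level, Mmp10 at 1.16% and 0.309%, Timp1 at 1.34% and 0.237%, and Mmp2 at 1.58% and 0.337%. Mmp9, at 0.392% and 0.140% of its macrophage level, and Mmp12, at 0.436% and 0.0841%, stood near the macrophage markers (0.370% and 0.151%). Other genes stood above these ranges. The epithelial level of Mmp14 was 8.03% and 10.8% of that in fibroblasts and 7.62% and 7.07% of that in macrophages, the level of Mmp11 was 37.6% and 21.9%, and that of Adamts15 was 74.8% and 104%. Mmp7 (995% and 716%), Mmp15 (1026% and 1314%) and Mmp28 (499% and 1033%) were higher in epithelial cells than in fibroblasts. Adamts13 (620% and 1097%), Adamts17 (170% and 286%) and Adamts20 (130% and 105%) also stood above their fibroblast level, with 1 to 7 UMIs in the fibroblasts of a library and no test. When epithelial cells with any fibroblast or macrophage marker UMI were left out, which kept 13203 and 3777 assembloid cells, 19 genes were still called higher and 3 lower against tissue. Of all genes tested in these cells, 25.2% were higher and 49.1% were called in either direction. Mmp3 was then at 3.59 and 1.23 CPM, Mmp10 at 3.66 and 0.997, Mmp9 at 8.0 and 4.65, Timp1 at 2.95 and 1.52 and Mmp2 at 5.30 and 1.56. Mmp7 (12 and 10.1 CPM) and Mmp28 (22.7 and 22.5) moved less. The calls of Adamts13, at 0.753 and 0.166 CPM (1.57 and 1.99 with all cells) against 0.294 and 0.284 in tissue, of Mmp17, at 0.182 and 0.0623 (0.210 and 0.145), and of Timp2, at 4.86 and 3.22, were lost, and Adamts8 and Mmp25 no longer passed the filter on low counts. The part of RNA from stromal cells in the remaining values was not tested.

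**Figure D3:**
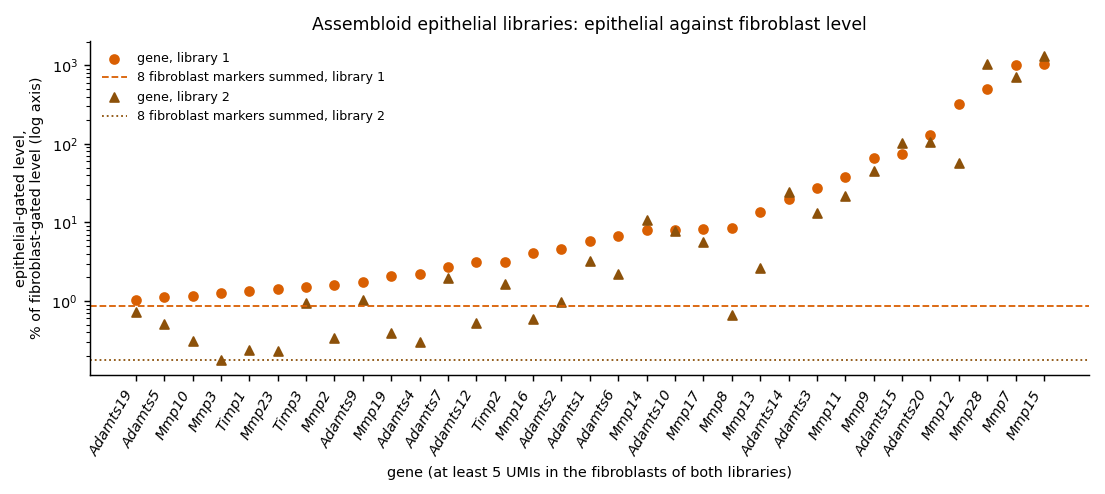
Level in epithelial-gated cells of each assembloid library as a percent of the level in its fibroblast-gated cells (log axis), for genes with at least 5 UMIs in fibroblasts of both libraries. Lines mark the same percent for the 8 summed fibroblast markers, 0.857% in library 1 and 0.179% in library 2, and Mmp7, Mmp15, Mmp28 and Adamts20 lie above 100% in both libraries.

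In organoid epithelium, grown without stroma, Mmp7 and Timp2 were higher than in tissue, and Timp3, Timp4, Mmp15 and Mmp28 were lower. Of 39 tested, 8 were higher and 7 lower, against 24.7% and 23.4% of all genes, with a median log2 fold change of 1.05 (0.35 with bounds) against 0.055 over all genes (TMM moved the median of all genes by 0.217). Of the 39, Mmp3, Mmp10, Mmp13 and Mmp25 had at most 1 UMI in organoids and 0 in tissue, entered through the assembloid libraries of the joint fit and were not called. This comparison shares the tissue libraries with the previous one. Mmp7 was at 61.4 and 93.5 CPM against 0.919 and 1.14 in tissue (6.45 ± 0.27, adjusted p = 4.98e-06), and made up 34.2% and 40.9% of the summed level in organoids. Timp2 was at 60.7 and 55.96 CPM against 3.63 and 4.10 (4.17 ± 0.32, adjusted p = 3.84e-05). These are the leading genes of organoid epithelium, where the fibroblast markers summed to 0.027 and 0.033 CPM. A UMI of Mmp7 was in 10.6% and 14.0% of organoid cells thinned to 2000 UMIs (57.8% and 37.1% unthinned) against 0.165% and 0.217% in tissue, and of Timp2 in 10.6% and 8.79% (73.8% and 33.3%) against 0.660% and 0.761%, at median depths of 35284 and 8231 UMIs in organoids and 4104 and 3763 in tissue. Timp3 was lower in organoids as in assembloids, at 7.68 and 7.89 CPM (-2.65 ± 0.31, adjusted p = 0.00028), and so was Timp4, at 0.0907 and 0.0221 (-6.13 ± 0.71, adjusted p = 0.000282). Mmp28 was at 1.89 and 2.98 CPM and lower than in tissue (-1.37 ± 0.27, adjusted p = 0.00378), and Mmp15 at 12.3 and 22.9 (-1.02 ± 0.22, adjusted p = 0.00612). Cycling-gated cells were 89.7% and 48.9% of passing cells in organoids, 19.5% and 23.5% in assembloids and 7.99% and 6.13% in tissue. In cycling cells Mmp28 overlapped, at 1.77 and 2.58 CPM in organoids and 2.06 and 5.42 in tissue. There Mmp15 was at 11.4 and 21.1 against 28.1 and 29.1 CPM, and Mmp7 at 55.6 and 90.6 against 3.64 and 5.65. The part of cell mix in differences between sources was not tested. Mmp14 was at 21.7 and 26.7 CPM and not called. Adamts15 was at 2.41 and 4.40 CPM (-1.27), and Adamts18 had 0 UMIs in organoids against 0.876 and 0.190 CPM in tissue, at least 53.2-fold lower (at least 17.6-fold against tissue library 2 alone). Among genes of low level, Timp1 (1.20 and 1.15 CPM), Mmp11 (0.640 and 0.783), Adamts1 (0.843 and 0.970), Mmp20 (0.571 and 0.992), Mmp17 (0.272 and 0.562) and Adamts3 (2.80 and 2.51) were higher. Adamts13 was lower, at 0.0107 and 0.0221 against 0.342 and 0.271 CPM. Without tissue library 1 or without organoid library 2, 5 genes in place of 8 were higher. The calls of Adamts1, Adamts3 and Adamts18 were lost when either organoid library or tissue library 1 was left out, that of Mmp17 without organoid library 2 or tissue library 1, that of Adamts15 without organoid library 1 or tissue library 1, and those of Mmp15 and Adamts3 without tissue library 2.

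Set directly against assembloids, organoids had 5 of 39 genes higher and 21 lower, against 24.6% and 28.6% of all genes, with a median log2 fold change of -2.27 (-2.26 with bounds) against -0.011 over all genes (TMM moved the median of all genes by -0.16). Both groups appear in the comparisons with tissue. Since Mmp3, Mmp9, Mmp10, Mmp12, Mmp13, Mmp25 and Adamts2 had 0 to 5 UMIs in organoids and 0 in tissue, and passed the filter on low counts only through assembloids, the count and median describe the genes and support nothing further. Mmp7 was 12.6 and 11.7 CPM in assembloids against 61.4 and 93.5 in organoids (2.48 ± 0.21, adjusted p = 0.000112), and Timp2 was 6.80 and 4.52 against 60.7 and 55.96 (3.19 ± 0.30, adjusted p = 0.000153). Mmp28 and Mmp15 went the other way. Mmp28 was at 24.1 and 26.2 CPM in assembloids against 1.89 and 2.98 in organoids (-3.56 ± 0.29, adjusted p = 8.38e-05), and Mmp15 at 39.0 and 50.03 against 12.3 and 22.9 (-1.54 ± 0.23, adjusted p = 0.000968). Timp3 was higher in gated organoid cells (1.55 ± 0.30, adjusted p = 0.00341), but with all passing cells and no gate, which takes in the assembloid fibroblasts, the difference was -0.62 (adjusted p = 0.0187). The other higher genes were Mmp20 and Adamts10, and without organoid library 1 or assembloid library 2, 3 genes in place of 5 were higher. Mmp2, Mmp9 and Mmp12, all secreted enzymes, were called lower in organoids. Mmp2 was at 0.0160 and 0.0331 CPM, Mmp9 at 0.0107 and 0.0331 and Mmp12 at 0.0160 and 0.0221, which is 2 or 3 UMIs of each in each library, against 9.18 and 1.57, 13.1 and 4.98, and 5.65 and 0.734 CPM in assembloids. Mmp10 had 0 UMIs in organoids and was at least 489-fold lower (at least 110-fold against assembloid library 2 alone), and Mmp3, Mmp13 and Mmp25 had 1 UMI each (pooled ratios 0.000646, 0.00398 and 0.0251, with 95% counting intervals of 1.63e-05 to 0.0036, 0.0001 to 0.0224 and 0.000618 to 0.149). Markers moved with these genes, with fibroblast markers as given above, and macrophage markers summed to 3.47 and 7.29 CPM in organoids against 36.5 and 18.5 in assembloids, and their part was not tested. The Adamts genes Adamts2 (0 and 0.0551 CPM), Adamts4 (0.0694 and 0.110), Adamts12 (0.0480 and 0.0441), Adamts13 (0.0107 and 0.0221), Adamts14 (0.0480 and 0.0221) and Adamts20 (0.0907 and 0.187) were lower too. Mmp14 (0.27, adjusted p = 0.195), Adamts15 (-0.33, adjusted p = 0.392), Mmp19 (-0.44, adjusted p = 0.651), Adamts7 (-0.74, adjusted p = 0.348) and Adamts9 (0.50, adjusted p = 0.42) were not called. The other lower calls were Mmp11, Mmp23, Mmp24, Timp1, Adamts1 and Adamts6, and those of Adamts4, Adamts12, Timp1 and, of the higher genes, Mmp20 were lost when either organoid library was left out. Timp1 was also lost without assembloid library 1 and Mmp20 without assembloid library 2. The calls of Mmp23 and Mmp24 were lost when any library but assembloid library 2 was left out, and that of Adamts10 without organoid library 1, assembloid library 2 or either tissue library.

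Colonocytes, the absorptive cells of the surface, were compared with cycling cells in assembloids and in tissue. Mmp15 was higher in colonocytes of both sources, while the contrasts of Timp3, Mmp14, Mmp28, Mmp7 and Adamts9 differed between the sources. Mmp15 was at 60.8 and 63.5 CPM in assembloid colonocytes and 27.3 and 34.0 in cycling cells (1.46 ± 0.10, adjusted p = 2.96e-08), and at 55.1 and 47.7 against 28.1 and 29.1 in tissue (1.39 ± 0.12, adjusted p = 1.42e-07). The difference of these contrasts was 0.06 ± 0.16 on the log2 scale and was not called. Timp3 was at 10.4 and 10.6 CPM in tissue colonocytes and 117 and 161 in cycling cells of tissue (-3.17 ± 0.18, adjusted p = 2.59e-09), the strongest contrast among the called inhibitors. In assembloids it was at 1.40 and 0.789 against 2.11 and 1.83 CPM (-0.45, not called), and the contrasts differed (2.72 ± 0.51, adjusted p = 0.00200). Mmp14 was at 9.37 and 13.3 against 33.7 and 31.4 CPM in tissue (-1.0 ± 0.17, adjusted p = 0.000165) and at 14.3 and 12.4 against 15.3 and 18 in assembloids (0.10, adjusted p = 0.595), which differed as well (1.10 ± 0.24, adjusted p = 0.00461). Mmp28 was lower in assembloid colonocytes, at 8.67 and 8.77 against 31.8 and 33.7 CPM (-1.48 ± 0.19, adjusted p = 8.86e-06). In tissue it was at 2.68 and 4.44 against 2.06 and 5.42 (0.58, not called), and this difference between contrasts was called too (-2.06 ± 0.37, adjusted p = 0.00149). Mmp7 was lower in colonocytes of both, at 2.04 and 1.40 against 12 and 8.79 CPM in assembloids (-2.17 ± 0.23, adjusted p = 1.73e-06) and, with 1 UMI in tissue colonocytes, against 3.64 and 5.65 CPM in tissue (pooled ratio 0.0116, 95% counting interval 0.000288 to 0.0672), and these contrasts differed by 3.58 ± 0.85 (adjusted p = 0.00852). This Mmp7 difference was not called without the library term or with the 6% of cells of most UMIs left out. Nor was it called without cells that had a fibroblast or macrophage marker UMI. In all, 3 of 24 genes had a higher and 2 a lower contrast in assembloids than in tissue, against 7.26% and 12.2% of all genes (TMM moved the median of all genes by -0.11, and without it the share of higher calls went from 37.3% to 50.2%). The difference of Mmp14 was not called without tissue library 1, nor that of Mmp7 without tissue library 2.

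The remaining genes of these contrasts were of low level. Timp2 was lower in colonocytes of assembloids (1.91 and 1.93 against 6.0 and 6.59 CPM, -1.27) and of tissue (0.478 and 0.422 against 3.39 and 4.97, -2.61). Adamts3, which trims procollagen and processes the growth factor Vegfc, was at 0.255 and 0.263 against 4.02 and 2.28 CPM in assembloids (-3.06) and at 0.287 and 0.211 against 2.06 and 0.904 in tissue (-2.01). Adamts10, Adamts16 and Adamts17 were called lower in colonocytes of both sources. In assembloids the pooled ratio was 0.122 for Adamts10 (95% counting interval 0.0146 to 0.456, 2 UMIs) and 0.0376 for Adamts16 (0.000945 to 0.213, 1 UMI). In tissue it was 0.0354 for Adamts17 (0.00412 to 0.137, 2 UMIs), and Adamts16 had 0 UMIs in colonocytes, at least 15.7-fold lower. Adamts14 had 0 UMIs in assembloid colonocytes against 2.59 and 4.34 CPM in cycling cells, at least 20.8-fold lower, and no UMI in either class of tissue. Adamts1 was lower in assembloid colonocytes (2.55 and 0.789 against 8.14 and 3.35 CPM, -1.40). In assembloids the call of Adamts10 was lost when any library was left out, that of Adamts17 without assembloid library 1 or either tissue library and that of Adamts1 without assembloid library 1, and in tissue that of Adamts3 was lost when either tissue library was left out and that of Adamts10 without tissue library 1. Adamts9 was higher in tissue colonocytes (5.45 and 1.16 against 1.33 and 0.678 CPM, 2.24 ± 0.63, adjusted p = 0.00682) with groups that overlapped, and its contrast differed from that in assembloids (-4.49 ± 1.09, adjusted p = 0.0100). There it was at 0.127 and 0.0877 CPM in colonocytes, 1 UMI in each library, against 0.603 and 0.811 in cycling cells (pooled ratio 0.152, 95% counting interval 0.0181 to 0.572, not called). In all, 1 of 24 genes tested was higher and 9 lower in assembloids, against 25.5% and 33% of all genes, and 2 were higher and 8 lower in tissue, against 28.8% and 27.5%, with medians of -1.04 and -0.54 against -0.18 and -0.045. Of the 24, Mmp3, Mmp9, Mmp10, Mmp12 and Adamts14 had 0 UMIs in both classes of tissue and Mmp2, Mmp11, Timp1, Adamts4 and Adamts6 at most 3 in either, so that these entered through assembloids in the joint fit and the tissue count and median hold genes with few or no UMIs there. Without tissue library 1, 1 gene was higher in tissue. Mmp9 (7.90 and 3.16 against 8.44 and 6.01 CPM) and Mmp11 (2.55 and 5.35 against 9.05 and 4.86) in assembloids, and Timp4 (4.30 and 3.8 against 7.15 and 4.52) and Adamts15 (8.80 and 7.08 against 15 and 9.26) in tissue, were not called. The scaling bears on these splits, because TMM lay 0.435 in assembloids and 0.538 in tissue above library size, and the share of higher calls among all genes went from 43.6% to 21.9% and from 51.1% to 24.2% without it. Timp3 had a UMI in 18.3% and 18% of tissue cycling cells thinned to 2000 UMIs (43.7% and 37.9% unthinned) and in 1.90% and 2.13% of colonocytes (9.91% and 8.73%), at median depths of 18729 and 14406 UMIs in cycling cells and 18509 and 14661 in colonocytes.

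Goblet cells, the mucus-secreting cells, had the highest Mmp7 level among the gated classes of assembloids. Assembloid goblet-gated cells (244 and 205) had Mmp7 at 169 and 109 CPM, against 0.339 and 0.931 in tissue goblet-gated cells (598 and 552), with no test made of this class. Thinned to 2000 UMIs, 16.8% and 13.7% of assembloid goblet cells had a UMI of Mmp7 (26.6% and 34.1% unthinned), compared with 0.680% and 0.154% of colonocytes and 0% and 0.22% of fibroblasts in the same libraries. Mmp7 transcripts were thus seen in part of the goblet cells. Of the 1862 and 1210 Mmp7 UMIs in assembloid epithelial-gated cells, goblet-gated cells held 346 and 449 and cycling-gated cells 754 and 336. Most of these UMIs therefore lay outside goblet-gated cells. Mmp15 in goblet cells was at 58.2 and 69.6 CPM in assembloids and 46.2 and 45.6 in tissue, and Mmp28 at 15.2 and 20.4 against 14.3 and 16.0. Timp3 stood at 0.979 and 0.243 CPM in assembloid and 25.1 and 18.4 in tissue goblet cells.

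**Figure D4:**
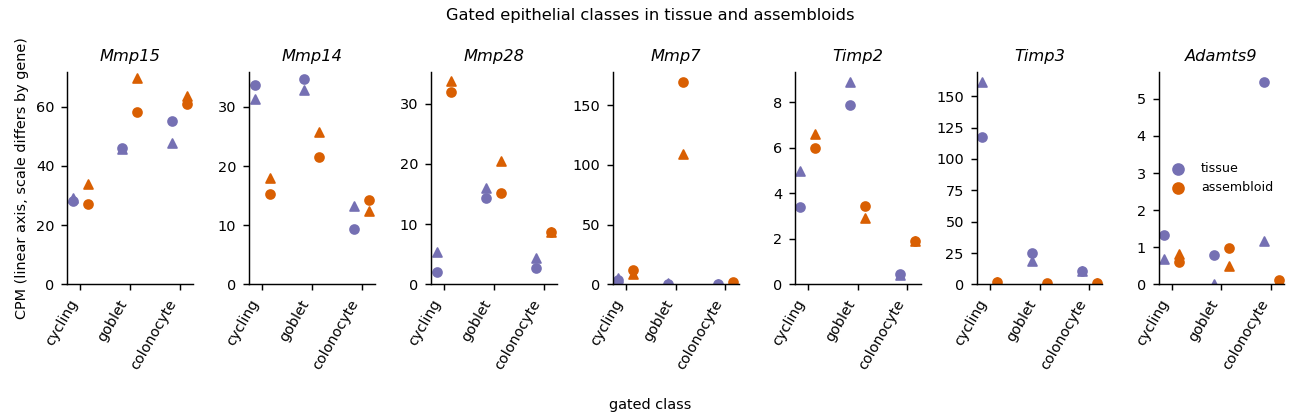
CPM (linear axis) of Mmp15, Mmp14, Mmp28, Mmp7, Timp2, Timp3 and Adamts9 in cycling-gated, goblet-gated and colonocyte-gated cells of tissue and assembloids, a point for each library. Mmp7 is highest in assembloid goblet cells, at 169 and 109 CPM, Timp3 in tissue cycling cells, at 117 and 161, and Mmp15 is higher in colonocytes than in cycling cells of both.

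Other genes of matrix turnover were described by fixed lists. Counts, given for the lists other than the plasminogen system, stand beside 26.7% of all genes higher and 23.5% lower in assembloids against tissue, and 24.7% and 23.4% in organoids. Of the plasminogen system, whose protease plasmin activates Mmp precursors, Plaur, the urokinase receptor, was at 52.5 and 59.0 CPM in assembloid epithelium against 15.7 and 17.6 in tissue epithelium (log2 fold change 2.14, adjusted p = 8.1e-05). Plau, urokinase, was at 1.59 and 1.81 CPM in assembloid epithelium and at 49.4 and 51.9 in macrophages. Of 12 other inhibitors and activators tested, 4 were higher and 3 lower in assembloids against tissue and 1 was higher and 6 lower in organoids. Hpn, a membrane serine protease, was at 8.46 and 7.84 CPM in tissue against 0.122 and 0.454 in assembloids, and the convertase Pcsk6 was at 9.35 and 10.2 CPM in assembloids against 0.898 and 1.17 in tissue. Of 14 matrix substrates tested, 11 were higher and 2 lower in assembloids, and 2 were higher and 2 lower in organoids. The fibroblast markers given above moved with the count in assembloids, where the collagen gene Col1a1 was at 8.27 and 2.20 CPM in epithelial cells against 1126 and 1287 in fibroblasts, and their part was not tested. Thbs1, thrombospondin 1, was at 46.9 and 56.9 CPM in tissue against 4.70 and 6.83 in assembloids, and the basement membrane collagen gene Col4a1 was at 21.4 and 8.32 CPM in assembloids and 27.9 and 43.8 in organoids against 0.770 and 0.706 in tissue. Of 7 sheddases 4 were higher and 1 lower in assembloids, and of 5 Adamts-like genes 3 and 1. In trophocytes against telocytes, 5 substrates of 11 were higher and 0 lower (9.81% and 10.5% of all genes), and Thsd4 of the Adamts-like genes was at 1.18 and 0.80 against 17.1 and 14.4 CPM (-3.96, adjusted p = 0.00072). Against epithelial cells of the same libraries, fibroblasts had 11 substrates of 11 higher (28.4% of all genes), 3 of which (Col1a1, Col1a2, Col3a1) belong to the fibroblast gate, and macrophages had 5 sheddases of 8 higher (22.9% of all genes), among them Adam8 at 299 and 296 CPM and Adam17 at 179 and 235.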

How the data were processed

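The 8 libraries (2 each of assembloid stroma, assembloid, organoid and tissue epithelium) were 10x 3′ v3 single-cell libraries, described as biological replicates. For each gene and barcode the authors deposited raw UMI counts, made per the file headers with Cell Ranger 6.0.1 (stroma) and 7.1.0 (epithelium), where the labels give version 6 and mm10. Intron counting is not given in the sources used here, and stroma was not tested against epithelium because the versions differ. Gene positions came from GENCODE M21 (GRCm38), which held all 45 genes and 99.8451% of all identifiers. Timp2 and Adamts17 overlap another gene on the same strand, so that their counts are less certain.

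Cells were kept when 500 or more genes were seen and 10% or less of the UMIs were mitochondrial. Classes needed at least 3 marker genes (4 for colonocytes, goblet cells and trophocytes, the last with at most 1 telocyte marker) and marker UMIs per 10000 of at least 20 (epithelial, basal squamous), 40 (fibroblast, macrophage), 10 (endothelial, glia, neuron), 80 (colonocyte) or 320 (goblet). Epithelial cells with 3 or more fibroblast, macrophage, endothelial or basal markers were left out. Fibroblast marker UMIs per 10000 had to be under 20 in basal squamous cells and under 40 in macrophages, endothelial cells, glia and neurons. Epithelial marker UMIs had to be under 20 in fibroblasts, macrophages, endothelial cells, glia and neurons, and basal squamous marker UMIs under 20 in fibroblasts. The limits on the marker sums were set after these sums had been seen. No doublet caller was run, and leaving out the 6% of cells with most UMIs was an alternative. The 45 genes, the gene lists and the comparisons were chosen with earlier results of these data known.

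UMIs were summed per library and class and tested in edgeR 4.0.16 (R 4.3.3, limma 3.58.1) by its quasi-likelihood test, with filterByExpr for low counts and TMM for scaling, with Benjamini-Hochberg adjustment over all genes tested. Class comparisons within libraries had the library as a term. The 3 epithelial sources were fitted together. SE values are the log2 fold change divided by the square root of F. Genes at 0 UMIs in a group were set at a floor of 3 counts over the group, and genes with 1 to 3 UMIs carry exact 95% counting intervals, which hold for counting error only. DESeq2 1.42.0 (values rounded to 3 significant digits before calls were counted), other filters and scalings and leaving out each library were alternatives. Sums and gates were made in Python 3.11.15 with scipy 1.17.1, numpy 2.4.6 and pandas 2.3.3.

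The text names, in each comparison, every gene called (up to 15 by absolute log2 fold change) and the 8 of highest mean CPM, and gives counts for the others. The chi-square per gene between libraries of a group was 24.2 to 367, above sampling noise. The labels do not say whether equal replicate numbers mark paired samples. The deviations of same-numbered libraries correlated at 0.163 (assembloid and organoid), 0.266 (assembloid and tissue) and -0.19 (organoid and tissue) over 8045 genes. These values cannot settle it, and stroma was not part of this check. Counts were also simulated from the real libraries with 200 genes changed 4-fold. Between assembloid and tissue epithelium, edgeR recovered 94.4% of the 197 changed genes tested, with 7 false calls. The shares were 92.2% of 192 (1 false call) between trophocytes and telocytes and 80.5% of 200 (10 false calls) between glia and fibroblasts. Nearly all changed genes passed the filter on low counts, so these shares say little about genes with few UMIs. The spread between simulated libraries was not compared with the chi-square above, so the shares cannot give the power in the real libraries. The counts over the plasminogen list are not reported here.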

Additional observations from a re-analysis of the deposited data

Results flagged for a closer look

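For 5 of the 24 genes tested, the log2 contrast of colonocytes against cycling cells differed between assembloids and tissue, by the interaction term of edgeR's quasi-likelihood fit, where 19.5% of all 14570 genes tested did. The count is thus near the share over all genes and is no trait of these genes as a group. The difference (assembloids minus tissue) was 3.58 for Mmp7 (adjusted p = 0.00852), 2.72 for Timp3 (adjusted p = 0.00200), 1.10 for Mmp14 (adjusted p = 0.00461), -2.06 for Mmp28 (adjusted p = 0.00149) and -4.49 for Adamts9 (adjusted p = 0.0100). The levels behind them are given in the report. Tissue colonocytes held 1 UMI of Mmp7, and the Mmp7 difference was not called with the 6% of cells of most UMIs left out, without cells that had a fibroblast or macrophage marker UMI, without the library term or without tissue library 2. The Adamts9 difference rested on 2 UMIs in assembloid colonocytes. It was not called without the library term and had no adjusted p in DESeq2, and it was not tested with the 6% of cells of most UMIs left out, without cells that had a fibroblast marker UMI, or without tissue library 1.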

How the results depend on the processing

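No called gene turned its direction under any alternative run, except Timp3 between organoid and assembloid epithelium, at -0.62 with all passing cells and no gate (1.55 with the gate). That setting also gave 3 genes higher in organoids than assembloids in place of 5, where 26% of all genes were higher in place of 24.6%. Library size without TMM, an alternative chosen after seeing the data, gave 5 genes lower in assembloid than tissue epithelium (3 with TMM) and 7 higher in trophocytes (13). DESeq2 gave 8 higher in trophocytes, 2 higher in basal squamous cells (1), 5 lower in assembloid colonocytes (9), 1 higher in tissue colonocytes (2) and 1 with a lower contrast in assembloids than tissue (2, of which Adamts9 had no adjusted p in DESeq2). With no low-count filter 3 were higher in basal squamous cells, 2 higher (1) and 19 lower (11) in endothelial cells and 10 lower in macrophages (4). Of all genes tested without that filter, 14.8% were higher in basal squamous cells (23.3%) and 7.05% in endothelial cells (13.7%). The share called in either direction was 16.9% in endothelial cells (30.5%) and 30.6% in macrophages (49.2%). Without the library term 2 were higher (13) and 1 lower (8) in trophocytes, and 1 more marker gene in the gates left 5 lower there. With that stricter gate, 20.8% of all genes were called in either direction (20.3%). Of all genes tested, 9.81% were higher in trophocytes in the main fit. That share was 6.64% without TMM and 0.359% without the library term. In DESeq2, 2046 of all genes were called in either direction between trophocytes and telocytes, against 2888 in the main fit. Without the library term, with the 6% of cells of most UMIs left out, and without cells that had a fibroblast, or a fibroblast or macrophage, marker UMI, 1 was higher in tissue colonocytes and 1 contrast was lower in assembloids. Unthinned, 22 genes in place of 13 had a UMI in at least 5% of stromal fibroblasts, 5 in place of 1 in assembloid, 7 in place of 3 in organoid and 5 in place of 2 in tissue epithelial cells. The cause of these changes was not tested. Between epithelial sources, the share of all genes called was also lower when a library of either source compared was left out. Counts without a library, here and above, are therefore not particular to the 45 genes. Leaving out each library in turn gave 17 to 27 genes higher and 2 to 3 lower between assembloid and tissue epithelium, 5 to 10 and 5 to 8 between organoid and tissue, 3 to 5 and 17 to 24 between organoid and assembloid, 1 to 3 higher in tissue colonocytes and 1 to 3 contrasts lower in assembloids. Leaving out a library from a class comparison within stroma, or within assembloids for fibroblasts and macrophages, leaves no residual degrees of freedom and gave values with no test. Of these log2 fold changes, 30 of 42 moved by more than their SE for trophocytes, 37 of 58 for fibroblasts against epithelial cells, 18 of 28 for neurons, 17 of 42 for basal squamous cells, 13 of 24 for endothelial cells, 13 of 28 for glia and 13 of 26 for macrophages, and none turned its direction. Mmp13 went from -2.01 to -0.97 in trophocytes without stroma library 1. A replicate block gave 21 higher and 4 lower between assembloid and tissue, 7 and 7 between organoid and tissue and 5 and 20 between organoid and assembloid. Of all genes, 49.3%, 47.2% and 52.1% were called with the block, against 50.2%, 48.1% and 53.2% in the main fit. Whether the libraries of a block share more than a number is not given. Depth limits tissue most, with 7681 and 5906 UMIs of the 45 genes.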
